A study of Mus musculus with 24 samples.

Results

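Ribosomal protein pseudogenes and retrocopies are copies of ribosomal protein genes that entered the genome as reverse transcripts of spliced mRNA. They usually lack the introns and the promoter of the gene they were copied from, which is called the parent here. The copies were taken from a table of mouse lung expression by name, as genes whose symbol begins with Rpl or Rps and a digit and either holds -ps or ends in rt. From these the members were selected on their level: a copy was kept when its deposited TPM was 1 or more in at least 4 of the 24 libraries. Levels over all libraries therefore describe the choice and were not tested. TPM is a level of transcripts corrected for their length, whose values add up to the same total in every library. Of 312 named copies 39 met the rule, out of 78298 genes in the table. They go back to 29 parents, of which 8 have more than 1 copy among them. The table annotates 24 of the 39 as processed pseudogenes, 9 as transcribed processed pseudogenes, 5 as protein coding and 1 as a lncRNA. Large-subunit genes are the parents of 26 copies and small-subunit genes of 13.

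Each library was made from total RNA of 1 lung sample after removal of ribosomal RNA. All mice were wild-type C57BL/6 males, 7 weeks old. In the LPS group 5 mice received lipopolysaccharide, a component of the bacterial outer membrane, at 5 mg/kg into the trachea. In 3 further groups of 5 mice the drinking water held AEAA, an aqueous extract of mugwort (Artemisia argyi), for 28 days before the same challenge on day 29. The low dose was 0.5 mg/mL, the mid dose 1 mg/mL and the high dose 1.5 mg/mL. The 4 Control mice received sterile saline by the described protocol, although 1 label field lists an LPS challenge for them too. Lungs were collected 8 h later. No group received the extract without LPS, so an effect of the extract itself and a changed response to LPS cannot be told apart.

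The cytosolic ribosome is built from ribosomal RNA and a set of proteins of which each is encoded by 1 parent gene in most cases. The mRNAs of these genes begin with a 5′ terminal oligopyrimidine tract, through which mTOR and the RNA-binding protein LARP1 control their translation. Because these mRNAs are short and very abundant, ribosomal protein genes have left more processed copies in mammalian genomes than most families. A read from a copy that kept the sequence of its parent can be placed on either gene, so a level listed for such a copy may hold reads of the parent, and the part of such reads was not measured here.

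How far the copies resemble their parents was read from the GENCODE M21 transcripts (genome build GRCm38), matched by Ensembl gene identifier, which gave a transcript for 38 of the 39. With gap bases counted as differences, the alignments were 93.52% to 100% identical to the parent, with a median of 99.7%. Each transcript was also divided into all its windows of 150 bases, the length of 1 read. In 12 of the 38 copies (31.6%) every window also stood in the parent, in 23 copies some did and in 3 none did. Among the 273 named copies under the level threshold, 1 (0.4%) had every window in its parent and 205 had none. No test is given for this difference, since reads shared with a parent can enter the level by which copies were chosen.

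The first 90 bases of the coding sequence are shown for Rps23, a small-subunit protein of the decoding centre, and for Rps23-ps1, the copy with the highest level. The parent lies on chromosome 13 and the copy on chromosome 3. No base differs, and all 276 windows of the copy also stand in the parent.

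Rps23: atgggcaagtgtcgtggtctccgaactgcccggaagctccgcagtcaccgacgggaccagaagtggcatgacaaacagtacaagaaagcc
Rps23-ps1: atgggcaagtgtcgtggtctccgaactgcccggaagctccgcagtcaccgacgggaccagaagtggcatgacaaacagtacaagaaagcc

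Rps13, another small-subunit protein, has 2 copies at over 100 scaled TPM. Bases 340 to 429 of the coding sequence are shown, with capitals at the positions where any of the 3 sequences differs from the others. Rps13-ps2 (chromosome 7, as its parent) matches the parent at every aligned base, while Rps13-ps1 (chromosome 8) differs from it at 2 bases.

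Rps13: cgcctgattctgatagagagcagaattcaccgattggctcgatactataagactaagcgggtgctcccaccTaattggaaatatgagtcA
Rps13-ps2: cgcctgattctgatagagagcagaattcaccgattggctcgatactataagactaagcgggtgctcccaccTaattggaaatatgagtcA
Rps13-ps1: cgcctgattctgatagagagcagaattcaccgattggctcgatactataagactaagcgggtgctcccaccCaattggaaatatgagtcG

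Rpl36-ps12 is shown because it is abundant and yet shares few windows with its parent. Its 3 mismatches, spread along the transcript, leave 4 of its 241 windows (1.7%) in Rpl36, a large-subunit protein gene on chromosome 17. Reads of the parent placed on the copy with mismatches were not measured. The copy lies on chromosome 6, in an intron of Sumf1 and on its strand. The first 90 coding bases hold 1 of these differences, in capitals.

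Rpl36: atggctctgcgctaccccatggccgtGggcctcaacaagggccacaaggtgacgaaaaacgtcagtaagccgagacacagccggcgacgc
Rpl36-ps12: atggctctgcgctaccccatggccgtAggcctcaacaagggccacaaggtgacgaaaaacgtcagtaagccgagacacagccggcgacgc

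Rpl22-ps1 (chromosome X) stands for the 3 copies that share no window with their parents, the others being Rps19-ps3 and Rps12-ps1. None of their windows stood in any other gene of the annotation either. Bases 133 to 222 of the coding sequence of Rpl22, a large-subunit protein needed for T cell development in mice, are aligned with the copy, and the 6 positions that differ are in capitals.

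Rpl22: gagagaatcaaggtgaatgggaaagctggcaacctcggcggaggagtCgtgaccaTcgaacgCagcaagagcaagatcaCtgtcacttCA
Rpl22-ps1: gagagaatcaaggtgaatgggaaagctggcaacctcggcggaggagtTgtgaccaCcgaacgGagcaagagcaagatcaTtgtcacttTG

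The copies are spread over the genome and most kept a reading frame. Only 2 of the 38 lay on the chromosome of their parent, and 5 lay on chromosome X. In 28 the frame of the parent was open over its full length. Another annotated gene was overlapped by 18 copies, and in 5 of these the copy lay in an intron of that gene on the same strand: Rpl36-ps12 in Sumf1, Rpl36a-ps2 in Ddah1, Rpl10-ps6 in Ide, Rps13-ps4 in Taf1c and Rps12-ps9 in Gm20388. Rps23-ps1 overlapped an exon of Gm5148 on the other strand. Whether counting used the strand is not given in the sources used here, so reads of such overlapping genes cannot be told apart.

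Libraries were put on 1 scale before any comparison. Scgb1a1, the main secretory protein of airway club cells, took 3.13% to 6.46% of all TPM in LPS lungs, 2.51% to 8.8% in extract lungs and 23.2% to 35.5% in Control lungs. Since TPM has a fixed total, a larger share of 1 gene lowers the listed TPM of all others. TPM was therefore divided by a median-of-ratios factor per library, 1.089 to 1.292 in LPS and 0.6523 to 0.8144 in Control libraries, and levels are given as scaled TPM. Depth is unknown, as no counts were used. In 3 libraries skeletal muscle transcripts (Acta1, Ckm, Tnnt3 and Mylpf) stood out, with a summed 3260 and 1980 scaled TPM in LPS replicates 1 and 3 and 930 in low-dose replicate 5, against at most 60.8 in the other 21 libraries.

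The copies fell into an abundant and a rare part. A mean over 100 scaled TPM was reached by 16 copies, 5 lay between 10 and 100, and 18 had a mean of 10 or less. The 8 most abundant made up 78.2% of the summed level of the 39. All 12 copies with every window in the parent had a mean over 10, and 11 of them a mean over 100. At the rule's threshold, the fourth highest TPM was 1.01 in Rpl27-ps1 and 1.07 in Rpl31-ps9, the 2 members just inside, and 0.98 in Rpl31-ps6 and 0.97 in Rpl31-ps18, the 2 copies just outside. Rpl27-ps1 was listed at 0 in 13 libraries and Rpl31-ps9 in 18. No copy reached a TPM of 1 in libraries of 1 group only, 31 reached a TPM of 1 in every group, and 19 reached it in all 24 libraries. Of the 273 copies under the threshold 140 were listed at 0 in every library.

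In 7 cases the copy was listed above its parent. Rps23-ps1 averaged 1482 scaled TPM over all libraries and its parent Rps23 469, a ratio of 3.16. Rpl31-ps8, from a large-subunit protein near the exit of the peptide tunnel, averaged 1396, and Rpl31 529.7 (ratio 2.63). The other 5 were Rps16-ps2 (ratio 1.74), the pseudogene entry of Rpl37rt (1.67), Rpl10-ps3 (1.64), Rpl36a-ps2 (1.49) and Rpl28-ps1 (1.32). Rps23-ps1, Rpl31-ps8 and Rpl36a-ps2 were above the parent in all 24 libraries, and 30 copies were below it in all 24. The same number of copies, 7, were above their parents by the deposited TPM and by the median over libraries. TPM divides by length, and each of the 7 compared transcripts was shorter than that of its parent. Rps23-ps1 had 425 bases against 937, and Rpl10-ps3 768 against 799. Every window of Rps23-ps1, Rpl31-ps8, Rps16-ps2, Rpl36a-ps2 and Rpl28-ps1 stands in the parent. The part of length and of shared reads in these ratios was not tested.

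**Figure D1:**
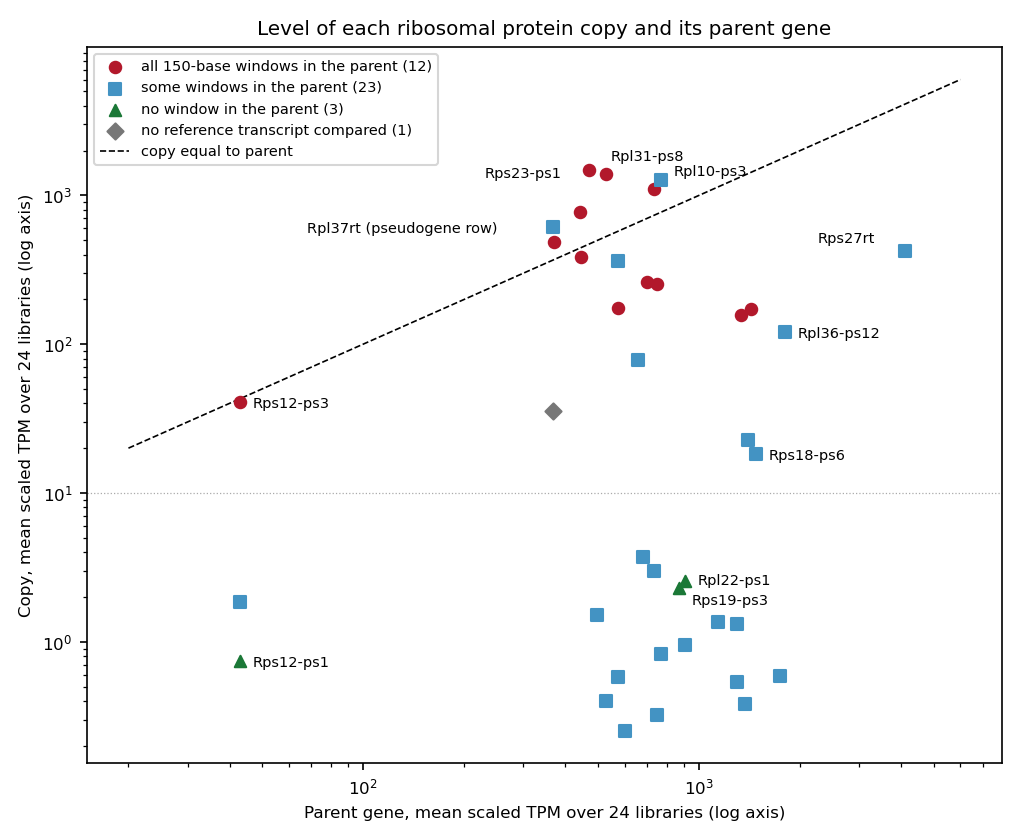
Mean scaled TPM over 24 libraries of each of the 39 copies (y axis, log) against that of its parent (x axis, log); colours and shapes give the share of 150-base windows that also stand in the parent, and the dashed line marks equal levels. The 7 copies above the line lie between 488 and 1482 scaled TPM, and the 3 copies without a shared window lie below 3.

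Across the 39 pairs Spearman's rho between the level of a copy and that of its parent was −0.207, while rho between a copy's level and its share of windows found in the parent was 0.641 (38 pairs). These are descriptions over pairs that share libraries and, in part, parents. Rps27, a small-subunit protein with the close paralog Rps27l, was the most abundant parent at 4105 scaled TPM, and its copy Rps27rt had 419.7. Rps12 had 42.9, and its copies Rps12-ps3, Rps12-ps9 and Rps12-ps1 had 41.0, 1.84 and 0.745.

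The copies with names in rt differed widely in level. Rpl37rt is the symbol of 2 entries. The entry annotated as a transcribed processed pseudogene averaged 614 scaled TPM, above its parent Rpl37 with 367, and the lncRNA entry 35.3. Rpl35rt, from a large-subunit protein at the tunnel exit, averaged 1.52, against 497 for Rpl35. Rps27rt is annotated as protein coding, as is Rpl35rt.

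Copies also varied more over the 24 libraries than their parents did. On the log2 scale the SD over the 24 libraries was larger than that of the parent in 38 of 39 copies. This SD holds differences between groups as well as between lungs of a group. The 39 include the 18 rare copies with a mean of 10 or less. Among the 21 copies with a mean over 10 the median SD was 0.551, and that of their parents 0.377. Rpl27-ps3 and Rpl38-ps2 were chosen after their values were seen, as the copies with the widest spread among the abundant ones, and every window of both stands in their parents. Rpl27-ps3 had 0.67, 355, 345, 661 and 666 scaled TPM in the 5 lungs with 0.5 mg/mL extract, while Rpl27, a large-subunit protein gene, ranged only from 698 to 973 there. Rpl38-ps2 had 126, 157, 0, 54.1 and 0 in the same lungs, and Rpl38, needed in mice for the translation of Hox mRNAs, 1342 to 1633. Neither passed in any comparison with LPS alone or Control.

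**Figure D2:**
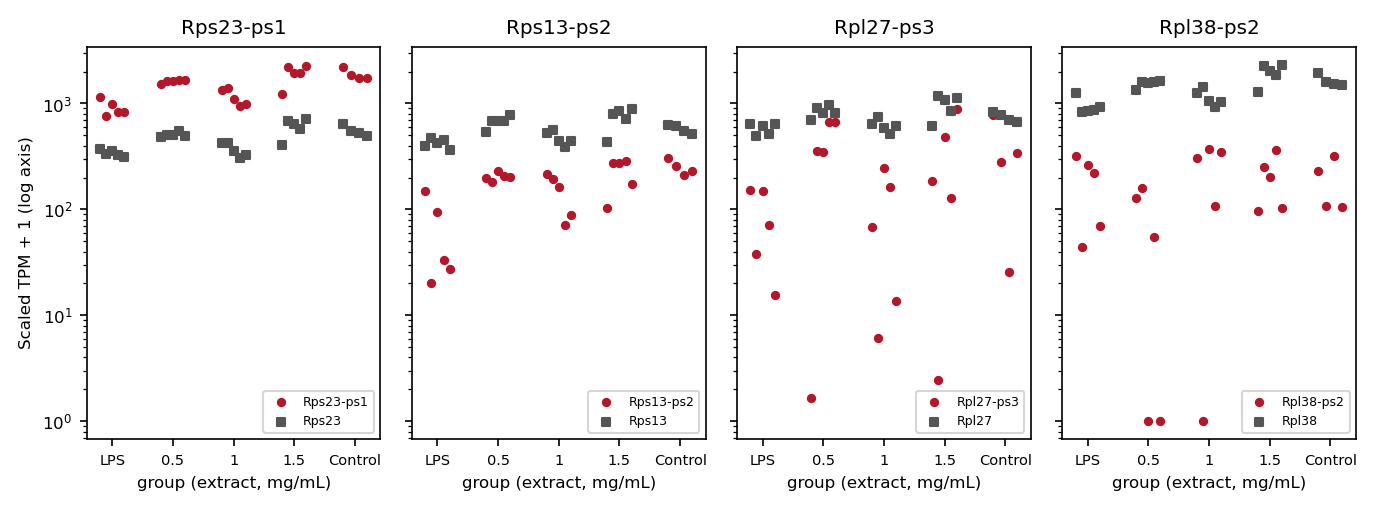
Scaled TPM + 1 (log axis) of 4 copies (circles) and their parents (squares) in every library, by group; 0.5, 1 and 1.5 are the extract doses in mg/mL, all with LPS. Rps23-ps1 runs alongside its parent, while Rpl27-ps3 and Rpl38-ps2 move between libraries of 1 group by more than the whole range of Rps23-ps1 on this axis.

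LPS lungs held less of most abundant copies than Control lungs. On scaled TPM 19 of the 39 copies were lower in LPS lungs and none higher in limma, with a median log2 fold change of −0.86 over the 39. The background was 27.9% of the 17823 genes tested called in either direction, 14.2% higher and 13.7% lower, with a median of 0.02 over all genes. Of the 29 parents 18 were lower and none higher on scaled TPM, but 2 were lower and 10 higher by the deposited TPM. In bulk samples fewer cells of a type and less RNA per cell cannot be told apart. The summed level of the 39 copies was 8624, 4783, 7075, 5909 and 6218 scaled TPM in the 5 LPS lungs, against 13089, 11073, 10437 and 10843 in the 4 Control lungs. On scaled TPM the groups did not overlap, and the lowest sum stood in LPS replicate 2. The library factors, 1.089 to 1.292 in LPS and 0.6523 to 0.8144 in Control libraries, widen this difference. The separation is therefore given for this scale only, and the sums were not compared by the deposited TPM. As a share of the summed parents the copies came to 26.2% to 36.1% in LPS and 35.4% to 38.3% in Control lungs.

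By the deposited TPM 3 copies were higher in LPS lungs (the pseudogene entry of Rpl37rt, Rpl31-ps8 and Rpl15-ps3) and 9 lower, with a median of −0.25, while the median of all genes was shifted by 0.55. There 58% of all genes were called, 56.2% higher and 1.86% lower. Rpl15-ps3, from a large-subunit protein gene, is named after its values were seen. The direction of the ribosomal protein genes themselves turned with the scale: 50 of 79 were lower in LPS lungs and none higher on scaled TPM, but 32 were higher and 6 lower by the deposited TPM. Of the 19 copies called lower on scaled TPM, 14 had a parent that was also called, where 18 of the 29 parents were called. Across the 39 pairs Spearman's rho between the change of a copy and that of its parent was 0.0115. The sign was the same in 30 pairs, where 27 of the 29 parents and 33 of the 39 copies had a negative change. Of the 21 copies with a mean over 10, 15 were lower, and of the 18 rarer ones 4. Of the 12 copies with every window in the parent 8 were lower, of the 23 with some windows 8, and of the 3 with none 2. The difference between these classes was not tested.

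Among the small-subunit copies Rps23-ps1 had 1158, 763, 984, 822 and 829 scaled TPM in LPS lungs, against 2194, 1871, 1757 and 1727 in Control lungs. Every LPS lung lay below every Control lung, and the log2 fold change was −1.06 (SE 0.16, adjusted p = 0.00012). Rps23 moved the same way, with 339 ± 24.3 in LPS and 551 ± 58.8 in Control lungs (SD, n = 5 and 4) and a log2 fold change of −0.70 (adjusted p = 0.00094). Rps16-ps2, from a protein whose tail reaches the P site, had 601, 362, 446, 417 and 419 in LPS lungs, against 1042, 1067, 881 and 817 in Control lungs. These groups did not overlap either, and the copy fell by 1.09 on the log2 scale (SE 0.2, adjusted p = 0.00069). Rps27rt had 269.5, 208, 218, 272 and 204 in LPS lungs, against 550.3, 590, 526 and 453 in Control lungs, with a change of −1.18 (SE 0.18, adjusted p = 0.00012) where Rps27 changed by −0.85 (adjusted p = 0.00014). By the deposited TPM these 3 copies still passed, with smaller changes of −0.40 for Rps23-ps1, −0.44 for Rps16-ps2 and −0.52 for Rps27rt.

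Larger decreases were seen in Rps13-ps2, Rps6-ps4 and Rps12-ps3, whose windows all stand in their parents. Rps13-ps2 had 148, 19.3, 92.8, 32.1 and 26.6 scaled TPM in LPS lungs, against 306, 255, 212 and 230.3 in Control lungs. The LPS lungs differed widely among themselves, yet none reached a Control lung. The log2 fold change was −2.38 (SE 0.46, adjusted p = 0.001), and that of Rps13 −0.45 (adjusted p = 0.044). Rps6-ps4, from the small-subunit protein that S6 kinases phosphorylate, had 152, 94.6, 29.5, 16.3 and 29.2 in LPS lungs, against 333, 285, 270 and 290.4 in Control lungs. All LPS lungs were again lower, with a log2 fold change of −2.64 (SE 0.62, adjusted p = 0.0038), while Rps6 averaged 1212 ± 118 in LPS and 1185 ± 109 in Control lungs and did not pass (0.03, adjusted p = 0.84).

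Rps12-ps3 had 13.3, 27.3, 0, 14.9 and 36.1 scaled TPM in LPS lungs, against 132, 45.8, 73 and 192 in Control lungs. Its parent Rps12 is a small-subunit protein that in Drosophila takes part in cell competition. The copy's log2 fold change of −3.03 (SE 0.96, adjusted p = 0.023) was the largest of the 39, but the call was lost without Control replicate 1 (−2.88), Control replicate 4 (−2.70) or LPS replicate 3 (−2.14). Without the 3 libraries with muscle transcripts it was −1.93 (adjusted p = 0.16).

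Of the large-subunit copies Rpl10-ps3 had 995, 697, 1098, 826 and 900.1 scaled TPM in LPS lungs, against 1826, 1502, 1479.6 and 1465 in Control lungs. Its parent Rpl10 joins the large subunit late in maturation. The copy was lower in all LPS lungs (log2 fold change −0.81, SE 0.12, adjusted p = 0.00013), but by the deposited TPM it changed by −0.15 and did not pass (adjusted p = 0.16). On scaled TPM Rpl10 averaged 796 ± 95 in LPS and 713 ± 32.7 in Control lungs and did not pass (0.15, adjusted p = 0.31). Rpl28-ps1 had 436, 363, 320.2, 366 and 314 in LPS lungs, against 705, 645, 595 and 610.2 in Control lungs. It fell by 0.83 on the log2 scale (SE 0.14, adjusted p = 0.00027), but by the deposited TPM it changed by −0.18 and did not pass (adjusted p = 0.22). On scaled TPM Rpl28, a large-subunit protein gene, changed by −0.27 without passing (adjusted p = 0.11). Rpl36-ps12, which shares few windows with Rpl36 though the placing of its reads was not measured, had 92.4, 50.4, 58.9, 41.9 and 55.5 in LPS lungs. In Control lungs it had 159, 157, 138 and 175. All LPS lungs lay below all Control lungs, and the change was −1.43 (SE 0.24, adjusted p = 0.00035; −0.78 by the deposited TPM, adjusted p = 0.0021). Rpl36 changed by −0.64 (adjusted p = 0.019), and the surrounding gene Sumf1, at a mean of 28.2, by −0.18 (adjusted p = 0.081).

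Rpl36a-ps2 and Rpl36a-ps1 are copies of a large-subunit protein of the exit site. Rpl36a-ps2 had 1199, 527, 729.7, 513 and 731 scaled TPM in LPS lungs, against 1430.2, 1296, 1183 and 1354 in Control lungs. LPS replicate 1 lay within the Control range and the other LPS lungs below it. The log2 fold change of −0.90 (SE 0.18, adjusted p = 0.0013) was close to the −0.84 of Rpl36a, and by the deposited TPM the call was lost (−0.24, adjusted p = 0.14). Rpl36a-ps1 was rare, with 4.33, 1.12, 0.453, 0 and 0.437 in LPS lungs, against 5.0, 3.35, 4.31 and 4.14 in Control lungs, and changed by −1.46 (SE 0.41, adjusted p = 0.013).

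The abundant copies Rpl31-ps8 and the pseudogene entry of Rpl37rt did not pass on scaled TPM. Rpl31-ps8 had 1359.9, 659, 1176, 1099 and 1061 in LPS lungs, against 1419, 1216, 1176 and 1242 in Control lungs, with a log2 fold change of −0.27 (SE 0.17, adjusted p = 0.23). By the deposited TPM it turned to 0.38 (adjusted p = 0.013). The Rpl37rt pseudogene entry had 585, 364, 612, 477 and 640.1 in LPS lungs, against 333, 481, 513 and 604 in Control lungs. The groups overlapped (0.15, SE 0.18, adjusted p = 0.55), and by the deposited TPM the entry was called higher (0.81, adjusted p = 0.00092). The lncRNA entry of Rpl37rt had 23.7, 22.3, 16.5, 24.1 and 16.4 in LPS lungs, against 55.4, 39.2, 40 and 35.1 in Control lungs, all lower, and changed by −1.01 (SE 0.18, adjusted p = 0.00058; −0.37 by the deposited TPM, adjusted p = 0.058). Rpl35rt had 1.42, 0.519, 0, 1.52 and 0.489 in LPS lungs, against 1.29, 3.22, 1.18 and 2.87 in Control lungs, and did not pass (−0.83, adjusted p = 0.11).

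The 3 copies without a shared window were rare. That no window is shared does not say how reads were placed: the longest run identical to the parent was 92 bases in Rpl22-ps1, 125 in Rps19-ps3 and 130 in Rps12-ps1, and reads of the parent placed with mismatches were not measured. Rpl22-ps1 had 1.65, 0.557, 0.737, 0.585 and 0 scaled TPM in LPS lungs, against 3.31, 1.74, 4.1 and 2.39 in Control lungs. The groups did not overlap, and the log2 fold change was −1.22 (SE 0.33, adjusted p = 0.0094) beside −0.82 for Rpl22 (adjusted p = 0.00044). Rps19-ps3 and Rps12-ps1 are named after their values were seen, to complete the 3. Rps19-ps3, from a gene mutated in Diamond-Blackfan anaemia, had 2.3, 1.2, 1.02, 0.965 and 0.986 in LPS lungs, against 1.63, 6.05, 3.1 and 3.35 in Control lungs, with a change of −0.93 (SE 0.28, adjusted p = 0.017) that was lost without Control replicate 2 (−0.68) and by the deposited TPM (−0.50, adjusted p = 0.13). Rps12-ps1 had 2.44, 0, 0, 0 and 0.429 in LPS lungs, against 0, 3.08, 2.36 and 3.14 in Control lungs, and did not pass (−1.0, adjusted p = 0.088).

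**Figure D3:**
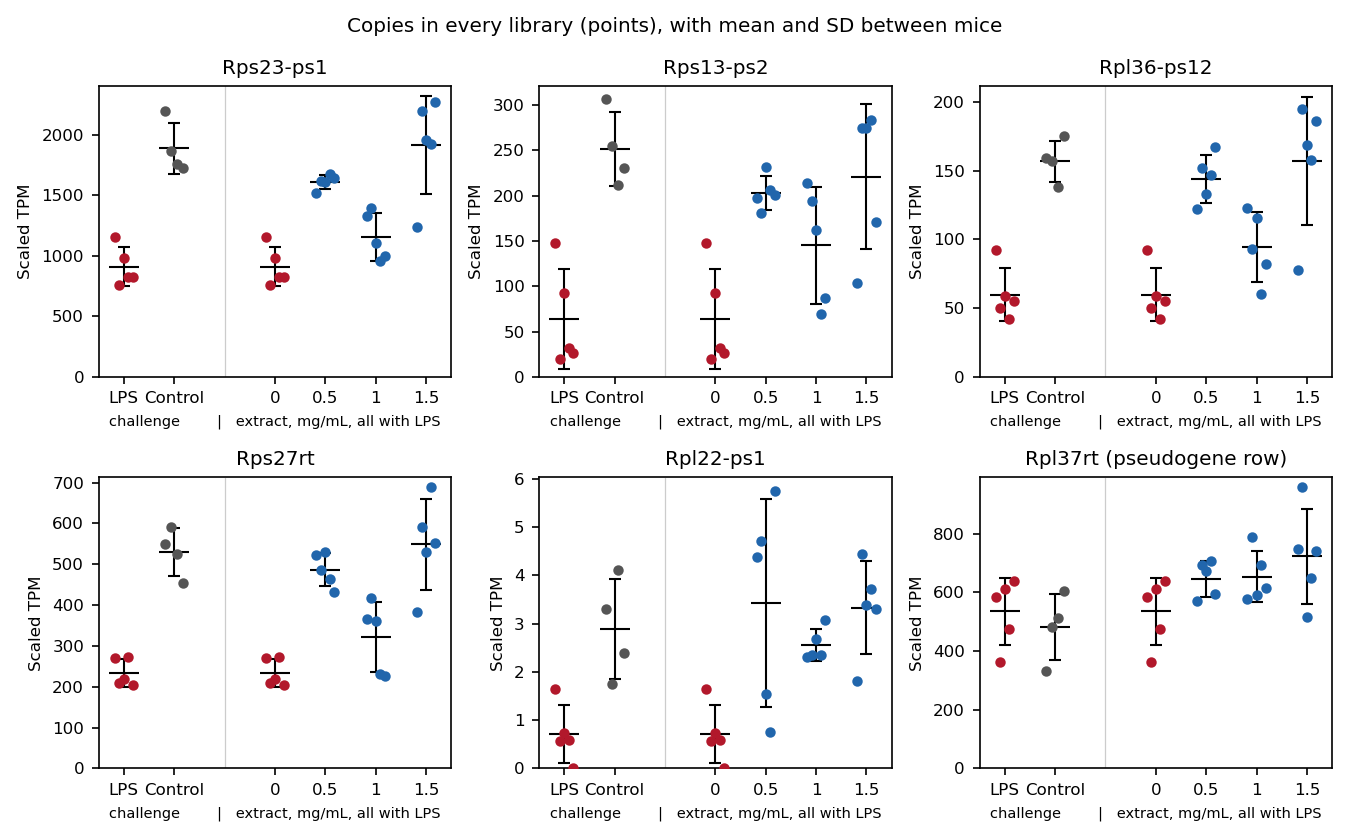
Scaled TPM of 6 copies in every library (points), with the mean and the SD between mice; on the left LPS and Control, on the right the LPS lungs again as 0 mg/mL and the 3 extract doses, all with LPS. In Rps23-ps1, Rps13-ps2, Rpl36-ps12, Rps27rt and Rpl22-ps1 all LPS points lie below all Control points, and in the pseudogene entry of Rpl37rt they overlap.

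The ratio of a copy to its parent in the same lung compares their changes within a library. For abundant copies it depends little on the scale of the library, while for copies near 0 the pseudocount makes it depend on that scale. In LPS against Control lungs the ratio was called in 11 of 39 pairs, 8 lower and 3 higher. Among all 88 copy and parent pairs of any family, these 39 included, 18 were called (20.5%), 12.5% lower and 7.95% higher. Of the 12 copies with every window in the parent 6 had a lower ratio and none a higher one. Of the 23 with some windows 2 were lower and 3 higher, and of the 3 with none no ratio was called. The difference between these classes was not tested. Without Control replicate 2 there were 7 calls, and 9 among all 88 pairs. Rps6-ps4 stood at 0.0132 to 0.127 of its parent in LPS lungs (median 0.0249), against 0.24 to 0.265 in Control lungs (log2 difference −2.68, SE 0.62, adjusted p = 0.0039). Rps13-ps2 stood at 0.0407 to 0.371 of its parent in LPS lungs, against 0.383 to 0.491 in Control lungs (−1.92, SE 0.44, adjusted p = 0.0039). Both ratios lay below the whole Control range in every LPS lung. Every window of both copies stands in the parent, and how reads were divided between copy and parent was not measured. The part of that division in these falls was not tested.

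Smaller falls of the ratio were seen in Rpl10-ps3 (0.797 to 1.44 in LPS, 2.07 to 2.44 in Control lungs, log2 difference −0.96, adjusted p = 0.00029) and Rpl36-ps12 (0.0415 to 0.0681 in LPS, 0.0768 to 0.1 in Control lungs, −0.79, adjusted p = 0.0039). Rps23-ps1 stood at 2.3 to 3.11 times its parent in LPS lungs and 3.36 to 3.48 times in Control lungs, a narrow but separate range (−0.36, SE 0.07, adjusted p = 0.0014). Rpl10a-ps1 (−0.77, named after its values were seen), Rpl28-ps1 (−0.56) and Rps16-ps2 (−0.42) completed the 8, the last with overlapping groups. The call of Rpl10a-ps1 was lost in 6 of the 9 fits that left out 1 library (adjusted p = 0.05 to 0.064) and without the libraries with muscle transcripts (adjusted p = 0.071). That of Rps16-ps2 was lost without Control replicate 2 or 4. The higher ratio of the Rpl37rt pseudogene entry, 1.51 to 2.41 in LPS and 0.627 to 1.66 in Control lungs (0.84, adjusted p = 0.018), was lost without Control replicate 1 (0.57, adjusted p = 0.069) and without the libraries with muscle transcripts (0.80, adjusted p = 0.071). The other 2, Rpl35a-ps2 and Rpl30-ps9, were listed at 0 in 18 and 20 of the 24 libraries. The parent of the first is mutated in Diamond-Blackfan anaemia, and the yeast counterpart of Rpl30 binds its own transcript. Rpl35a-ps2 had 0, 0, 3.19, 0 and 4.54 scaled TPM in LPS lungs, and Rpl30-ps9 0, 0.983, 0, 2.48 and 0. In Control lungs both were at 0 but for 0.013 of Rpl35a-ps2 in replicate 3, and with a pseudocount of 0.1 neither ratio passed (adjusted p = 0.12 each). Nor did they by the deposited TPM (adjusted p = 0.11 for Rpl35a-ps2 and 0.14 for Rpl30-ps9).

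**Figure D4:**
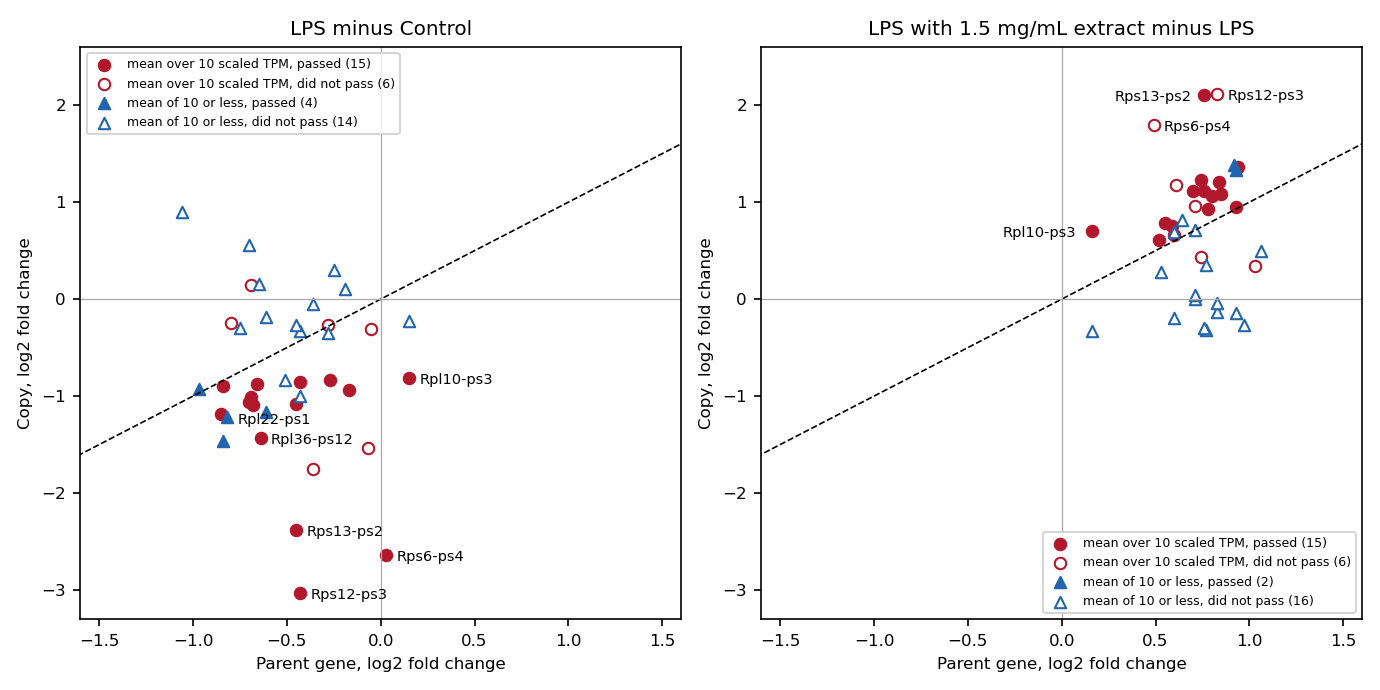
Log2 fold change of each copy (y axis) against that of its parent (x axis), for LPS minus Control and for LPS with 1.5 mg/mL extract minus LPS; filled symbols passed at an adjusted p under 0.05, and the dashed line marks equal change. In the left panel Rps12-ps3, Rps6-ps4 and Rps13-ps2 lie at −3.03, −2.64 and −2.38, far below the line, and in the right panel all 21 copies with a mean over 10 lie above 0.

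Markers of some cells of the lung moved in the same comparison. Neutrophil markers were higher in LPS lungs for 5 of 6 genes, with a summed 442 to 11044 scaled TPM in LPS and 160.3 to 226 in Control lungs. Club cell markers were lower for 3 of 3, with 26402 to 60612 in LPS and 293139.7 to 558896 in Control lungs. Of the markers of type II alveolar cells 1 of 4 was lower, with a summed 13775 to 30431 in LPS and 50747 to 57133 in Control lungs. For endothelium 2 of 3 were higher, and for T and B cells 1 of 6 was lower. None of the 6 markers of alveolar macrophages, 5 of erythroid cells and 4 of skeletal muscle passed. No marker was at 0 in every library. The part of these cells in the lower level of the copies was not tested. Pseudogenes of other families, 65 tested, had 7 higher and 7 lower and a median of 0.06. Of 15 other translation genes with terminal oligopyrimidine tracts 1 was higher and 4 lower, and of 15 regulators of ribosome production 10 were higher and none lower.

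At the low dose, 0.5 mg/mL, 10 of the 39 copies were higher than with LPS alone and none lower in limma, on a background of 2.11% of all genes called, 1.62% higher. The median over the 39 was 0.53 on the log2 scale, and over all genes −0.01. All dose comparisons share the LPS libraries with the comparison above, so a low LPS value enters both, and their values are set side by side only. The parents were higher in 20 of 29 cases, and 8 of the 10 called copies had a called parent. Spearman's rho between the changes of copy and parent was 0.153 over the 39 pairs. The sign was the same in 28, where 28 of the 29 parents had a positive change. Of the copies with a mean over 10, 9 of 21 were higher, and of the rarer ones 1 of 18. By the deposited TPM 10 were higher too, with 10.6% of all genes called and 1.23% higher. The count fell to 6 without low-dose replicate 2 or 5 or LPS replicate 2 or 4, and to 5 without low-dose replicate 3 or LPS replicate 5. In these fits the calls over all 17823 genes fell too, from 376 to between 62 and 94. The summed copies came to 9604, 10841, 10766, 11206 and 10779 scaled TPM in low-dose lungs, all above the 4783 to 8624 of the LPS lungs.

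Rps23-ps1 had 1519, 1619, 1612, 1674 and 1647 scaled TPM in low-dose lungs, which was above all LPS lungs (763 to 1158) and a narrower range (log2 fold change 0.84, SE 0.15, adjusted p = 0.011). Rps16-ps2 had 811, 880.4, 911, 915 and 871, against 362 to 601 in LPS lungs (0.98, SE 0.19, adjusted p = 0.014). Rps27rt had 523, 485, 529, 464 and 433, against 204 to 272 in LPS lungs (1.06, SE 0.17, adjusted p = 0.011). None of the 3 overlapped with LPS, and their parents changed by 0.57, 0.56 and 0.71.

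Rps13-ps2 had 197, 181, 231, 206 and 201 in low-dose lungs, against 148, 19.3, 92.8, 32.1 and 26.6 in LPS lungs. All low-dose lungs were higher (2.08, SE 0.43, adjusted p = 0.02), yet the call was lost in 5 of the 10 fits that left out 1 library (1.77 to 2.08 there). Rpl36-ps12 had 122, 152, 133, 147 and 167, against 41.9 to 92.4 in LPS lungs (1.30, SE 0.23, adjusted p = 0.011), and Sumf1 around it changed by 0.08 (adjusted p = 0.6). The ratio of Rpl36-ps12 to its parent Rpl36 was 0.0633 to 0.0772, against 0.0415 to 0.0681 in LPS lungs, and did not pass. Rpl22-ps1 had 4.38, 4.72, 1.54, 0.751 and 5.74, against 0 to 1.65 in LPS lungs. Here the groups overlapped, and the change of 1.27 (SE 0.31, adjusted p = 0.037) was lost in 8 of the 10 fits without 1 library. The remaining calls were Rpl10-ps3, Rpl31-ps8, Rpl36a-ps2 and the lncRNA entry of Rpl37rt, at 0.63 to 0.83 (0.40 to 0.61 by the deposited TPM, all called). Of these Rpl31-ps8 and Rpl36a-ps2 each lost the call in 7 of the 10 fits without 1 library, and the lncRNA entry of Rpl37rt in 3.

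The ratio to the parent was higher at the low dose in 4 of 39 pairs. Among all 88 pairs, these 39 included, 12 were called (13.6%), and 11.4% were higher. Of the 4 copies 3 have every window in the parent and 1 has some. Rpl10-ps3 stood at 1.62 to 2.2 times Rpl10 in low-dose lungs and 0.797 to 1.44 times in LPS lungs, without overlap (0.69, SE 0.15, adjusted p = 0.0054), while Rpl10 itself changed by −0.06 (adjusted p = 0.81). Rps13-ps2 (1.41), Rps16-ps2 (0.43) and Rps23-ps1 (0.27) also passed, each with overlapping groups. The call of Rps13-ps2 was lost in 6 of the 10 fits without 1 library (adjusted p = 0.057 to 0.094), and that of Rps16-ps2 without low-dose replicate 3 or LPS replicate 4. Without low-dose replicate 3 or LPS replicate 4 there were 2 such calls, with 5 and 6 of all 88 pairs called. Without LPS replicate 1 there were 7, with 14 of all 88. After a correction for transcript length, which held 38 of the copies, 6 levels were called at the low dose in place of 10. Over all genes that correction gave 231 calls of 16407, in place of 376 of 17823. Ribosomal protein genes were higher in 46 of 79 cases, other pseudogenes in 5 of 65, and none of the 15 other translation genes passed. Of the markers of other cells 1 T and B cell gene was higher.

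At the mid dose, 1 mg/mL, none of the 39 copies passed in limma against LPS alone, where 0% of all genes were called. At an unadjusted p under 0.05 there were 11 copies and 532 of all 17823 genes. The summed copies came to 9049, 9224, 8100, 6784 and 7040 scaled TPM in mid-dose lungs, of which 3 lay within the LPS range and 2 above it. Rps23-ps1 had 1331, 1396, 1109, 955 and 997, against 763 to 1158 in LPS lungs, with overlap (0.34, adjusted p = 1). Rps13-ps2 had 214, 194, 162, 69.8 and 87.1 (1.47, SE 0.43, adjusted p = 1), and it was the 1 copy that passed once the libraries with muscle transcripts were left out. Rpl22-ps1 had 2.31, 2.35, 2.69, 2.34 and 3.08, all above the LPS lungs with 0 to 1.65, and still did not pass (1.12, SE 0.31, adjusted p = 1). The ratio to the parent passed in none of the 39 pairs, with 9 of the 39 and 12 of all 88 pairs at an unadjusted p under 0.05. There were 5 calls without LPS replicate 1 and 7 without the libraries with muscle transcripts, where 5 and 7 of all 88 pairs were called.

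At the high dose, 1.5 mg/mL, 17 of the 39 copies were higher than with LPS alone and none lower, on a background of 8.73% of all genes called and 5.66% higher. The median was 0.71 over the 39 and 0.00 over all genes. Of the copies with a mean over 10, 15 of 21 were higher, and of the rarer ones 2 of 18. Of the 12 copies with every window in the parent 8 were called, of the 23 with some 7, and of the 3 with none 1. The parents were higher in 28 of 29 cases, so that most copies had a called parent whether called or not, and 16 of the 17 called copies did. Spearman's rho between the changes of copy and parent was 0.104 over the 39 pairs, and the sign was the same in 30. All 29 parents had a positive change, so that this count is only the number of copies with a positive change. By the deposited TPM 15 copies were higher, with 27.6% of all genes called and 2.05% higher. The summed copies came to 8422, 13609, 12142, 11678 and 13766 scaled TPM in high-dose lungs, where replicate 1 lay within the LPS range of 4783 to 8624 and the other 4 above it.

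Rps23-ps1 had 1240.5, 2197, 1959, 1924 and 2273 scaled TPM in high-dose lungs, all above the LPS lungs with at most 1158 (log2 fold change 1.06, SE 0.15, adjusted p = 0.00094). Rps27rt had 383, 592, 530.3, 688 and 552, against 204 to 272 in LPS lungs, again without overlap (1.21, SE 0.17, adjusted p = 0.00094). Rps13-ps2 had 103, 275, 274, 283 and 171, and its lowest value lay inside the LPS range of 19.3 to 148 (2.11, SE 0.43, adjusted p = 0.0057). The parents of the 3 changed by 0.80, 0.84 and 0.76.

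Rpl36-ps12 had 77.5, 195, 169, 158 and 186 in high-dose lungs, against 41.9 to 92.4 in LPS lungs (1.36, SE 0.23, adjusted p = 0.002), with replicate 1 alone among the LPS values. Sumf1 changed by 0.08 (adjusted p = 0.56). The ratio of Rpl36-ps12 to Rpl36 was 0.0522 to 0.0734, against 0.0415 to 0.0681 in LPS lungs, and did not pass. The lncRNA entry of Rpl37rt had 31.3, 48.2, 58.9, 63.3 and 50, against 16.4 to 24.1 in LPS lungs (1.23, SE 0.17, adjusted p = 0.00094). Rpl22-ps1 had 1.8, 4.45, 3.39, 3.72 and 3.3, against 0 to 1.65 in LPS lungs (1.38, SE 0.31, adjusted p = 0.0087). Neither overlapped with LPS. Rpl36a-ps1 had 1.41, 3.75, 4.03, 5.69 and 5.22, against 0 to 4.33 in LPS lungs, and its change of 1.33 (SE 0.39, adjusted p = 0.035) was lost in 7 of the 10 fits without 1 library.

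The other high-dose calls among the most abundant copies were Rps16-ps2 (1.11), Rpl36a-ps2 (0.95), Rpl28-ps1 (0.75), Rpl10-ps3 (0.70) and Rpl31-ps8 (0.66), all called by the deposited TPM too, at 0.34 to 0.79. The pseudogene entry of Rpl37rt had 748, 961, 518, 649.7 and 741 in high-dose lungs and did not pass (0.43, adjusted p = 0.13), while Rpl37 changed by 0.74 (adjusted p = 0.0051). Rps6-ps4 had 41.3, 301, 149.6, 246 and 253, against 16.3 to 152 in LPS lungs, and Rps12-ps3 had 26.5, 93.6, 38.3, 49.6 and 69.6, against 0 to 36.1. Both were wide and overlapped, and neither passed (1.80, adjusted p = 0.056, and 2.12, adjusted p = 0.15). Rpl35rt had 1.89, 1.53, 0.282, 2.54 and 0.419 and did not pass (0.35, adjusted p = 0.61).

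No ratio to the parent passed at the high dose in limma, with 0% of the 88 pairs called. At an unadjusted p under 0.05 there were 15 of the 39 and 27 of all 88 pairs. Without high-dose replicate 1 there were 11 calls among the 39, and 18 among all 88 pairs. Without LPS replicate 1 or LPS replicate 3 there were 6, and 7 among all 88, so that single libraries decided this count. Ribosomal protein genes were higher in 72 of 79 cases with a median of 0.71, other translation genes with the tract in 6 of 15, and pseudogenes of other families in 6 of 65 with 3 lower. Of the regulators of ribosome production 1 of 15 was higher, and 1 of 3 endothelial markers was lower.

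**Figure D5:**
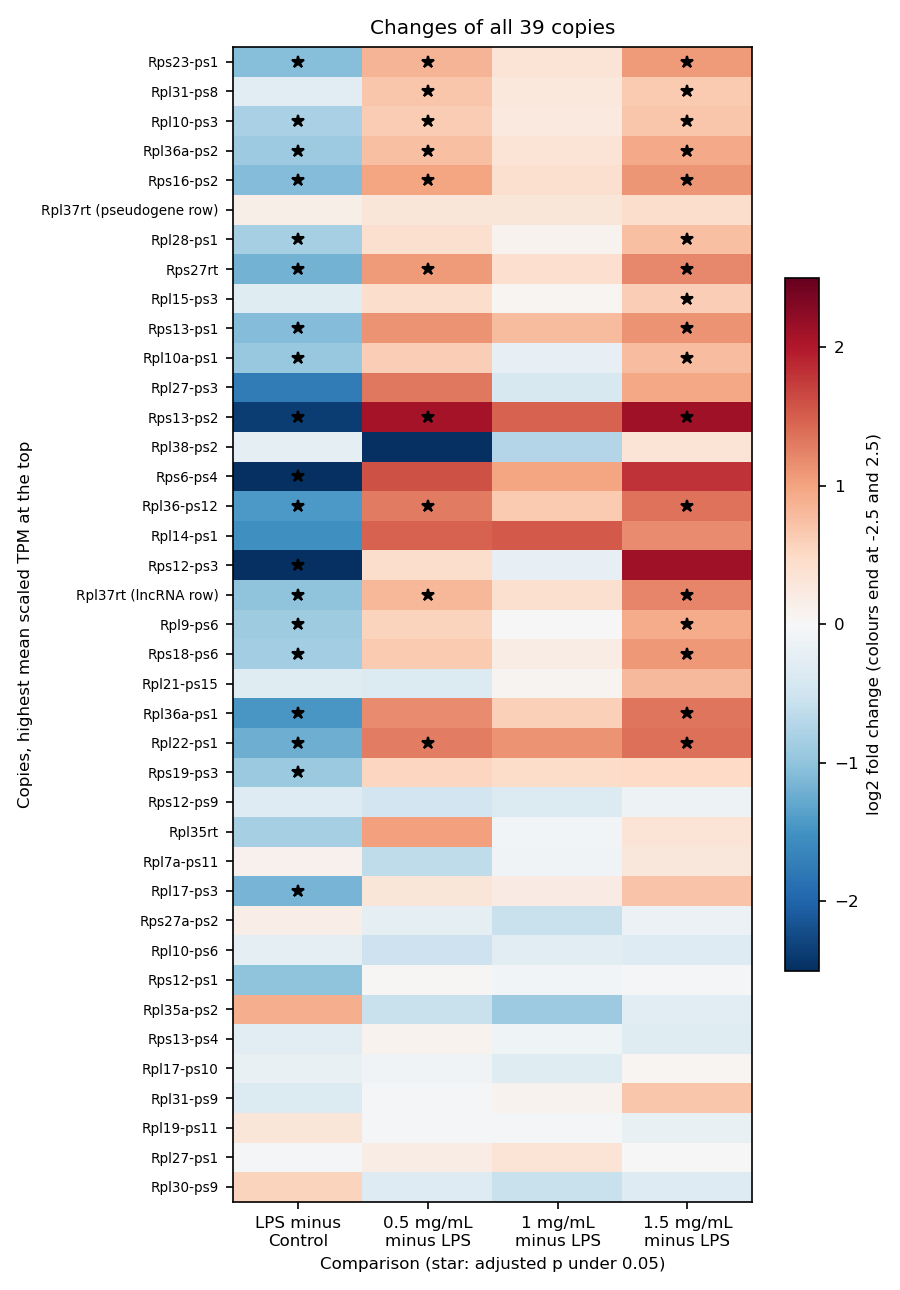
Log2 fold changes of the 39 copies in 4 comparisons, ordered by mean level with the highest at the top; colours end at −2.5 and 2.5, and a star marks an adjusted p under 0.05. Stars stand at 19 copies for LPS minus Control, 10 for the low dose, 0 for the mid dose and 17 for the high dose, most of them in the upper part.

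The doses were also compared with each other in the same fit, a choice made after the data were seen. High-dose against mid-dose lungs differed in 11 of the 39 copies, all higher at the high dose, on a background of 7.55% called and 3.94% higher, and by the deposited TPM in 7, with 18.6% called and 0.959% higher. They included Rpl10a-ps1 (0.97), Rpl9-ps6 (0.92), Rps18-ps6 (0.89), Rps27rt (0.79) and Rps23-ps1 (0.71), each with overlapping groups. High-dose against low-dose lungs gave no call in limma, with 4 copies and 1723 genes at an unadjusted p under 0.05 and 0.0224% of all genes called. Low-dose against mid-dose lungs gave none either, with 13 copies and 2200 genes at an unadjusted p under 0.05 and 0% of all genes called. No ratio to a parent was called between doses, where 0% of the 88 pairs passed.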

How the data were processed

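Lung RNA of 24 mice was sequenced by the authors as paired reads of 150 bases after removal of ribosomal RNA, per the labels' protocols. The deposited table gives TPM per gene, made by the authors, with no counts and the same total in every library. The submitters' processing notes name HISAT2, StringTie, RSEM, DESeq2 and GRCm39; versions and the annotation are not given in the sources used here. Depth is therefore unknown, and no counting interval is given.

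TPM was divided by a median-of-ratios factor per library (scaled TPM), and log2(scaled TPM + 1) was fitted with limma 3.58.1 (R 4.3.3, trend and robust prior) with 1 mean per group over all 24 libraries. Genes that reached 1 TPM in 4 or more libraries, 17823 in all, were tested two-sided, with Benjamini-Hochberg adjustment over all of them and a threshold of 0.05. Fold changes of low genes are understated by the pseudocount of 1. The log2 difference of copy and parent was fitted likewise over 88 pairs of any family, the 39 pairs of the members among them. Both fits were tried on simulated data with independent noise and planted log2 changes of 1 and 2. Of 100 planted level changes, 80 to 84 were recovered at 1 and 94 to 98 at 2. Of 10 planted ratio changes of 1, 8 were recovered for LPS against Control, and 7, 4 and 6 for the low, mid and high dose. At 2 it was 8 to 10. Level changes were planted only in genes above a set mean level, so rare copies were not covered.

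Members named in the text are the 8 with the highest mean, up to 6 largest increases and decreases per comparison, up to 4 ratios per direction, each copy ending in rt, and the 2 on either side of the threshold. The members and lists were chosen with earlier results of these data known. Same-numbered lungs were not treated as paired. The correlations of their deviations ran from −0.457 to 0.47, which cannot show whether they share a batch or an order of handling. Replicates are separate mice as far as the labels say. Alternatives were the TPM as deposited, upper-quartile scaling, no filter, a pseudocount of 0.1, a length correction, a replicate block and leaving out each library. Added after the data were seen were the 3 libraries with muscle transcripts left out, and the comparisons between doses. Sequences are GENCODE M21 transcripts (GRCm38), so no coordinates are given.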

Additional observations from a re-analysis of the deposited data

Results flagged for a closer look

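Within groups of 4 or 5 lungs, 115 groups of 23 copies were checked for a lung far from the others by Dixon's ratio, and 11 had one. Chance flags about 1 in 20 groups. No cause was tested.

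High-dose replicate 1 stood low in 4 copies. It had 1240.5 scaled TPM of Rps23-ps1, against 1924 to 2273 in the other high-dose lungs, and 77.5 of Rpl36-ps12, against 158 to 195. It had 189 of Rpl10a-ps1, against 321 to 392, and 12.0 of Rps18-ps6, against 26.9 to 32.7. Its summed copies, 8422, were also the lowest of its group.

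Control replicate 1 stood high in 3 copies, with 1826 scaled TPM of Rpl10-ps3 against 1465 to 1502 in the other Control lungs, 444 of Rpl10a-ps1 against 322 to 334, and 489 of Rpl15-ps3 against 342 to 361.

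Low-dose replicate 4 was high in Rpl10-ps3 (1491, against 1338 to 1362), and low-dose replicate 1 was low in Rpl31-ps8 (1486, against 1704 to 1767). LPS replicate 1, a library with muscle transcripts, was high in Rps19-ps3 (2.3, against 0.965 to 1.2). LPS replicate 3, another, was listed at 0 for Rps12-ps3, against 13.3 to 36.1.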

How the results depend on the processing

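Counts of called levels stayed within 1.5 times of the 19, 10, 0 and 17 reported for LPS against Control, the low, the mid and the high dose, except as follows. By the deposited TPM LPS against Control gave 12, 3 higher and 9 lower. The low dose gave 6 with the length correction and 5 without a filter, where 231 of 16407 and 63 of 42819 genes were called. Leaving out the 3 libraries with muscle transcripts gave 18, 9, 1 and 15 levels and 10, 6, 7 and 5 ratios, where 11, 4, 0 and 0 ratios had been called. Over all genes that fit called 2676, 148, 4 and 918 levels, in place of 4973, 376, 0 and 1556. Among all 88 pairs it called 13, 10, 7 and 6 ratios. Leaving out 1 library at a time gave 16 to 20, 5 to 12, 0 to 0 and 13 to 18 levels, and 7 to 12, 2 to 7, 0 to 5 and 0 to 11 ratios. Over all genes these fits called 3311 to 5715, 62 to 415, 0 to 2 and 755 to 2879 levels. Among all 88 pairs they called 9 to 19, 5 to 14, 0 to 5 and 0 to 18 ratios. The replicate block gave 19, 7, 0 and 15 levels and 12, 5, 0 and 0 ratios. Over all genes that fit called 4582, 149, 1 and 1475 levels, and among all 88 pairs 17, 11, 0 and 0 ratios. The labels do not say that same-numbered lungs are paired. In direction, Rpl31-ps8 in LPS against Control turned to 0.38 by the deposited TPM, and the pseudogene entry of Rpl37rt to −0.02 without Control replicate 1 (−0.02 to 0.28 over the fits without 1 library). Upper-quartile scaling and a pseudocount of 0.1 moved none of these counts by more than 1.5 times. Of single named results 90 of the 657 fits without 1 library lost their call and 1 reversed. The cause of these changes was not tested. TPM without depth limits all of this: for copies at or under a few TPM a value of 0 may be few reads or none, and for copies that share their windows with a parent the table cannot say how the reads of both were divided.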
